A study of Rattus norvegicus with 42 samples.

Results

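Astrocytes, the star-shaped support cells of the brain, were described here through 10 genes that mark either the cell type itself or its reactive state. The genes were Gfap, Vim, S100b, Aldh1l1, Serpina3n, Lcn2, Nes, Cd44, Sox9 and Fabp7, and each transcript whose gene symbol is one of these was taken from the table of counts. The table lists 15516 transcripts of 14304 gene symbols. It holds 10 transcripts of 9 of the 10 genes, all of which passed the filter on low counts, among 13062 tested transcripts. Nes has 2 transcripts, NM_001308239 and NM_012987, that span the same coordinates, so the split of reads between them by the counting algorithm is uncertain. Serpina3n is not analysed here.

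The tissue was the hippocampus of male Sprague Dawley rat pups, with 1 RNA sequencing library per animal. Pups were injected intraperitoneally on postnatal day 7 with saline (VEH), phenobarbital at 75 mg/kg (PB, a barbiturate anti-seizure drug that enhances GABA-A receptor currents) or levetiracetam at 200 mg/kg (LEV, an anti-seizure drug that binds the synaptic vesicle protein SV2A), and tissue was taken 72 hours later. All pups, the controls included, received an overdose of sodium pentobarbital at death and were perfused with cold saline buffer, and each group took 1 pup per litter. The comparison used 13 VEH, 14 PB and 14 LEV animals, because VEH animal 7 is marked as excluded in its label. The study left out 1 control sample because its average coverage was far higher, and its genomic coverage far lower, than in the other samples. Sample codes fall into 2 series, animals 1 to 6 and animals 7 to 14 of each group. What the series stand for is not stated. Animals were bought in a pair of orders, but no label ties an order to a series.

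Estimated counts per library summed to between 9499492 and 14488134. Markers of other cells varied between libraries. The summed normalized count (counts scaled to a common library size) of 11 choroid plexus transcripts spanned 139.04 to 54174 for VEH, 171.3 to 85673 for PB and 122.2 to 62291 for LEV. Neuron markers had summed medians of 56840 for VEH, 53695 for PB and 57068 for LEV. The other astrocyte genes, such as Aqp4, Slc1a3 and Aldoc, were present at a summed median of 90605, 83940 and 88118 for the same groups.

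Astrocytes take up glutamate and potassium, supply metabolites and enclose synapses, and in the rat hippocampus many of them mature in the first postnatal weeks. After injury or inflammation they become reactive, a state classically seen as more of the intermediate filament proteins GFAP and vimentin. Cytokine signals through JAK and STAT3, and BMP and Notch signals, are known inducers of Gfap. Reactive cells can also raise nestin, the hyaluronan receptor CD44, the secreted iron-siderophore carrier lipocalin 2 (Lcn2) and the protease inhibitor Serpina3n. S100b encodes a calcium-binding protein and Aldh1l1 a folate enzyme. Sox9 encodes a transcription factor of the glial lineage and Fabp7 a fatty acid carrier of radial glia and young astrocytes.

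The sequences just upstream of the genes that changed are shown first, because Gfap, Vim and Cd44 were the members that rose together after PB. Each run holds the 250 bases before the RefSeq gene start on the GRCr8 assembly, which is not the rn6 build used for the counts, and is written 5′ to 3′ on the gene's strand. Capitals mark a match to the TATA box motif. The Gfap sequence lies at chr10:88361662-88361911 on the minus strand, the Vim sequence at chr17:81577011-81577260 on the plus strand and the Cd44 sequence at chr3:109699425-109699674 on the minus strand.
Gfap: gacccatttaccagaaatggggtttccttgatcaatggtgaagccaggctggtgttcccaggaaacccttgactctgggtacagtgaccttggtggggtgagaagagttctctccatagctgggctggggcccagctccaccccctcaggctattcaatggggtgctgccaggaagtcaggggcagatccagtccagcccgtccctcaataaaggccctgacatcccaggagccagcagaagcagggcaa
Vim: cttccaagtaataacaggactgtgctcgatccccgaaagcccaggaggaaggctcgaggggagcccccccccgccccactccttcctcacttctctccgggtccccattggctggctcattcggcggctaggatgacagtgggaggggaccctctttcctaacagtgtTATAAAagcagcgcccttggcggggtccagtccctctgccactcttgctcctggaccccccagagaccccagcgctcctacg
Cd44: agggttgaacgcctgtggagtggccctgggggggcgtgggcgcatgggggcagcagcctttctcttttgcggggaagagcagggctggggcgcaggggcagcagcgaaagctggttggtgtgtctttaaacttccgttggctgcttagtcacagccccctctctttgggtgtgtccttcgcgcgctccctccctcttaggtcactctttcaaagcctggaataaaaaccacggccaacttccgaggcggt

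A RefSeq promoter entry was found for 9 of the 10 members. Both strands of each window were searched for 5 motifs, some of which can overlap. TTCNNNGAA, the STAT motif, is in 7.67% of the 33469 rat promoter windows of the same length. TGANTCA, the AP-1 motif, is in 6.34% of them. TGACGTCA, the CRE motif, is in 1.59%. The short motif TTGGCA of the NF1 factors is in 12.0% of windows.

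The motif TATAAA of core promoters is in 12.9% of windows, and among Gfap, Vim and Cd44 it was Vim that held it. Neither the Gfap nor the Cd44 window held any of the 5 motifs. A match is a description of these letters and says nothing of binding.

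**Figure D1:**
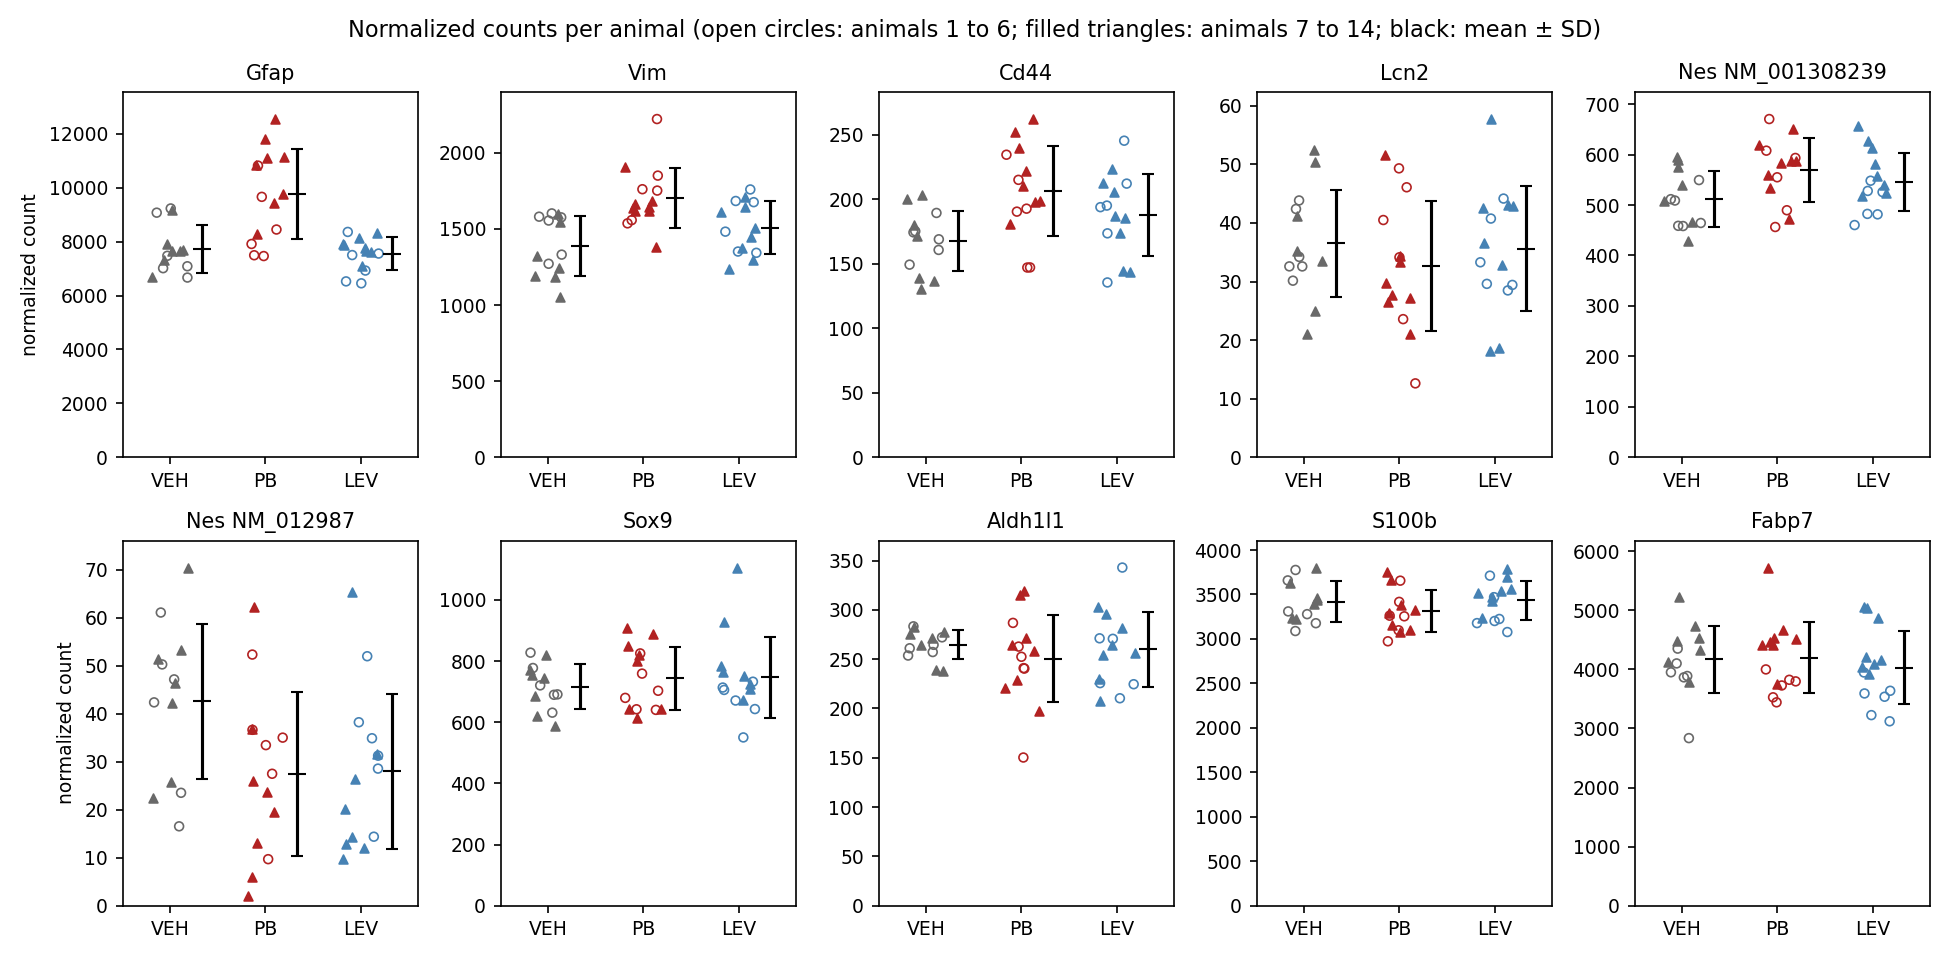
Normalized count of each member transcript in every animal (y axis) for the VEH, PB and LEV groups (x axis), with the mean and SD in black; open circles are animals 1 to 6 and filled triangles animals 7 to 14. The Gfap, Vim and Cd44 points of the PB animals sit higher than those of VEH, with overlap, and the S100b and Fabp7 points overlap widely between groups.

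After PB, 3 member transcripts rose against VEH and none fell. These were Gfap and Vim, which encode the filament proteins, and Cd44. A transcript passed the test when its p from the edgeR quasi-likelihood test, adjusted by Benjamini-Hochberg over all 13062 tested transcripts, was under 0.05. Among all tested transcripts, 5.39% passed in this comparison, 1.93% as higher and 3.46% as lower in PB. Without adjustment 5 of the 10 members had a p under 0.05, against 20.2% of all tested transcripts. After LEV no member passed against VEH, and Gfap was also higher after PB than after LEV.

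Gfap (NM_017009, rn6 chr10:90990762-90999436) encodes the main filament protein of astrocytes. Its lowest, median and highest normalized counts were 6669, 7647 and 9234 for VEH, 7467, 9726 and 12553 for PB and 6455, 7637 and 8362 for LEV. The PB and VEH ranges overlapped, yet 9 of 14 PB animals lay above the highest VEH animal and none lay below the lowest. Means were 7741 ± 896.2 (SD, n = 13) for VEH, 9770 ± 1659 (SD, n = 14) for PB and 7555 ± 604.8 (SD, n = 14) for LEV. PB exceeded VEH by a log2 fold change of 0.32 (SE 0.064, 95% interval 0.20 to 0.45, edgeR adjusted p = 0.00241), which is 1.25-fold and just reaches the fold limit of 1.25 used in the study. Gfap was the 1 member to reach this limit, as did 0.605% of all tested transcripts (0.345% as higher). The study itself reported Gfap just under its limit in the sequencing data, and higher after PB by qPCR in a separate cohort. It also found stronger GFAP protein staining after PB and after LEV, a measure that was not examined here. The value lay under the limit in some other settings, such as a series-by-treatment term (0.31) or the vascular markers as a covariate (0.29). In others it lay above, such as DESeq2 (0.32) and animals 7 to 14 alone (0.46). In 12 of 14 PB animals the count was above the VEH mean of the same series. In whole tissue, a change in the number of cells of a type and a change in RNA per cell cannot be told apart.

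The rise of Gfap was uneven between the series. Animals 1 to 6 had a mean of 7760 ± 1112 (SD, n = 6) after VEH and 8637 ± 1347 (SD, n = 6) after PB. For animals 7 to 14 the VEH mean was 7725 ± 758.1 (SD, n = 7) and the PB mean 10621 ± 1375 (SD, n = 8). Within the first series the log2 fold change was 0.15 (SE 0.099, edgeR adjusted p = 0.559), and within the second it was 0.46 (SE 0.069, edgeR adjusted p = 0.00120). The difference between the series was 0.30 on the log2 scale (SE 0.12) and had an unadjusted p of 0.0167 but an edgeR adjusted p of 0.331. With the excluded VEH animal put back, the fold change was 0.24 and no longer passed (edgeR adjusted p = 0.108). Leaving out each of the 41 animals in turn kept it between 0.30 and 0.35, past the threshold each time.

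Vim (NM_031140, rn6 chr17:80882715-80891201) encodes vimentin, the filament protein of immature astrocytes, ependyma, vessels and meninges. Its lowest, median and highest normalized counts were 1051, 1331 and 1602 for VEH, 1382, 1654 and 2222 for PB and 1239, 1493 and 1759 for LEV. All 14 PB animals were above the VEH mean of their series and 11 were above the highest VEH animal. The log2 fold change of PB against VEH was 0.30 (SE 0.062, edgeR adjusted p = 0.00367), 1.23-fold and under the fold limit. The first series gave 0.26 (edgeR adjusted p = 0.227) and the second 0.33 (edgeR adjusted p = 0.0234). The value fell to 0.19 with the excluded VEH animal put back (edgeR adjusted p = 0.289).

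Vim level moved with markers of the ventricle wall among animals. With the group and series means removed, its correlation over the 41 animals was r = 0.67 with the mean of the choroid plexus markers (rho = 0.69) and r = 0.70 with that of the ependyma markers (rho = 0.70). Each had a permutation p of 1e-05, the smallest the permutations can give, and an adjusted p of 0.00055 over 110 relations of members with marker lists. Without the 2 animals farthest from the median of the marker list, r was 0.65 and 0.69. Within animals 1 to 6 it was 0.51 and 0.56, and within animals 7 to 14 it was 0.78 and 0.79. All 11 choroid plexus transcripts and all 7 tested ependyma transcripts had positive fold changes for PB against VEH, with medians of 0.63 and 0.39 on the log2 scale, but none passed the edgeR test (0 and 1 at an unadjusted p under 0.05, and 0 with DESeq2). With the choroid plexus level as a covariate, the Vim difference between PB and VEH was 0.26 (SE 0.048, edgeR adjusted p = 0.00118). The ependyma level was not used as a covariate. The part of these markers in the Vim result was not tested. How many of the other tested transcripts varied with these markers was not computed.

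Cd44 (NM_012924, rn6 chr3:92696292-92783659) encodes the hyaluronan receptor of reactive astrocytes and of many immune cells. Its lowest, median and highest normalized counts were 130.2, 171.6 and 203.4 for VEH, 147.1, 204.8 and 262.3 for PB and 135.5, 190.6 and 245.5 for LEV. PB exceeded VEH by 0.30 on the log2 scale (SE 0.089, edgeR adjusted p = 0.0398), with 12 of 14 PB animals above the VEH mean of their series and 7 above the highest VEH animal. The first series gave 0.15 (edgeR adjusted p = 0.700) and the second 0.41 (edgeR adjusted p = 0.0396). Of the 3 calls this was the one lost on leaving out single animals. It was lost when any of 13 of the 41 animals was left out, namely VEH 3, 4, 5, 8, 9, 10 and 14 and PB 1, 2, 7, 9, 10 and 11, with a log2 fold change of 0.27 to 0.33 and an edgeR adjusted p of up to 0.0742. The neuron marker level was negatively correlated with Cd44 across animals (r = -0.45, adjusted permutation p = 0.0410; rho = -0.46, adjusted permutation p = 0.0510, n = 41), and r was -0.42 without the 2 farthest animals, -0.36 in the first series and -0.51 in the second. With the vascular markers as a covariate the Cd44 difference was 0.29 (edgeR adjusted p = 0.0618). The part of the neuron level in the Cd44 result was not tested.

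**Figure D2:**
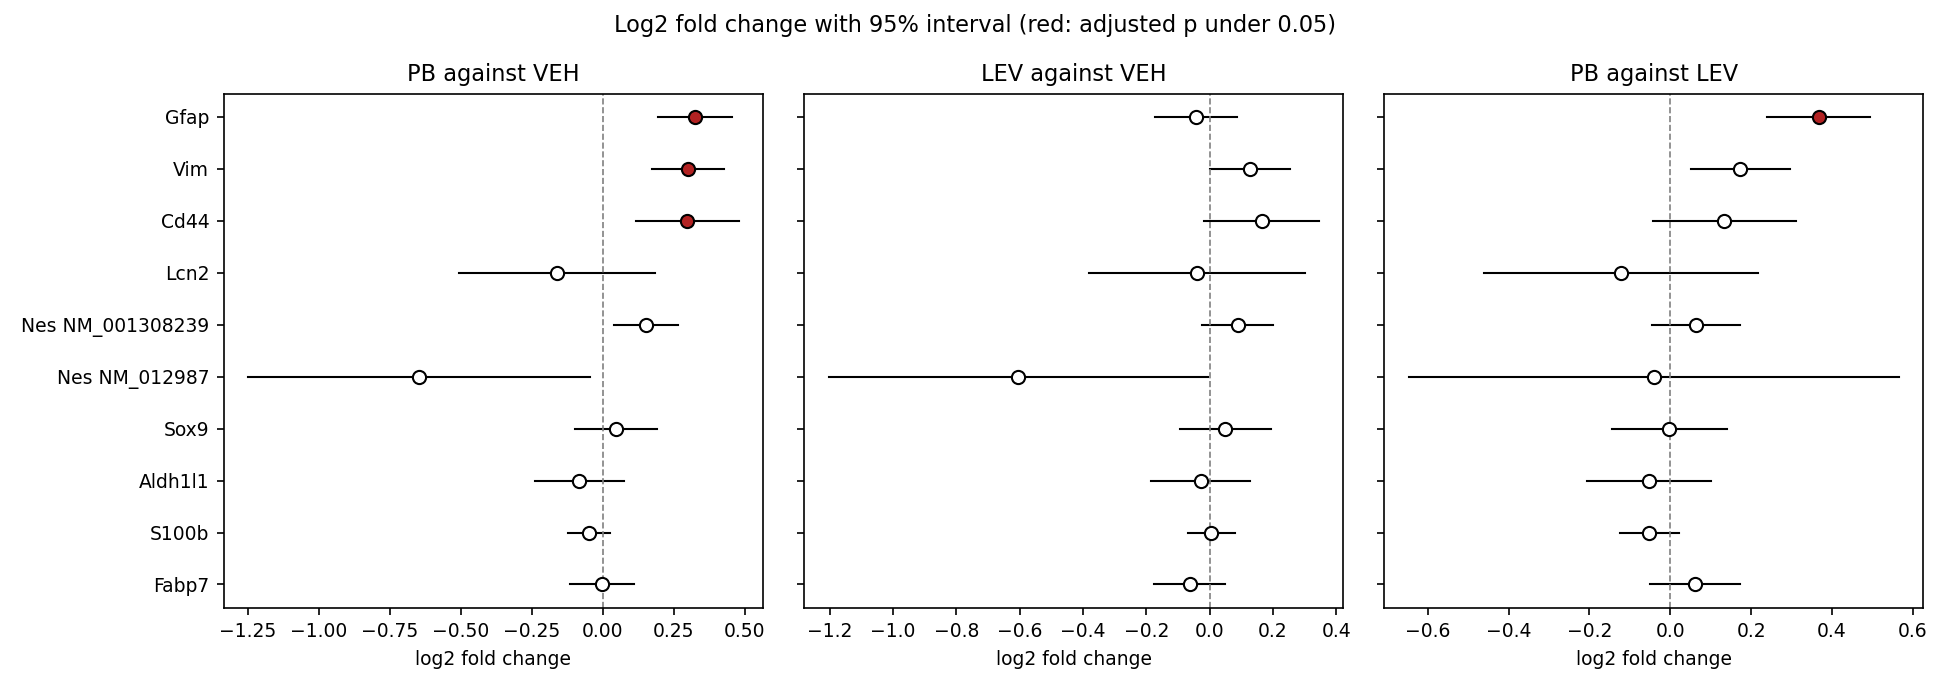
Log2 fold change (x axis) of the 10 member transcripts (y axis) for PB against VEH, LEV against VEH and PB against LEV, with 95% intervals; red points had an adjusted p under 0.05. Gfap, Vim and Cd44 are red in the first panel, none in the second and Gfap in the third.

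The other filament gene among the members, Nes, did not pass with edgeR. It encodes nestin, the filament protein of neural progenitors. NM_001308239 (rn6 chr2:187343929-187352972) had lowest, median and highest normalized counts of 429.2, 508.9 and 595.9 for VEH, 456.4, 585.8 and 670.5 for PB and 460.3, 533.7 and 657.1 for LEV. PB differed from VEH by 0.15 on the log2 scale (SE 0.055, edgeR adjusted p = 0.0995), with 11 of 14 PB animals above the VEH mean of their series. It passed without PB animal 5 or PB animal 14, with values up to 0.17 and an edgeR adjusted p down to 0.0462. The far less abundant NM_012987 had median normalized counts of 46.39 for VEH, 26.78 for PB and 27.49 for LEV. Its PB difference had the opposite sign, -0.65 (SE 0.30, edgeR adjusted p = 0.210). NM_001308239 did pass after subtraction of the series effects and DESeq2 (0.16, adjusted p = 0.0432). With the counts of both transcripts summed, Nes differed by 0.11 (edgeR adjusted p = 0.213).

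Lcn2 (NM_130741, rn6 chr3:11414189-11417535), often raised strongly in reactive astrocytes, was low in every group. Its lowest, median and highest normalized counts were 21.11, 34.21 and 52.45 for VEH, 12.6, 31.56 and 51.56 for PB and 18.21, 34.94 and 57.75 for LEV. No PB animal was above the highest VEH animal. The log2 fold change of PB against VEH was -0.16 with a 95% interval of -0.50 to 0.18 (edgeR adjusted p = 0.651). Its level was correlated across animals with the choroid plexus markers (r = 0.50, adjusted permutation p = 0.0273; rho = 0.53, adjusted permutation p = 0.0193, n = 41; r = 0.51 without the 2 farthest animals, 0.62 in the first series and 0.43 in the second).

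The 4 identity genes did not pass in any comparison. S100b (NM_013191, rn6 chr20:13130636-13142857) had lowest, median and highest normalized counts of 3089, 3388 and 3803 for VEH, 2974, 3277 and 3752 for PB and 3078, 3473 and 3788 for LEV. It differed between PB and VEH by -0.047 (95% interval -0.12 to 0.027, edgeR adjusted p = 0.514), the narrowest interval among the members. Aldh1l1 (NM_022547, rn6 chr4:123516553-123557526) had 238.2, 264.7 and 283.3 for VEH, 150.3, 255.4 and 319.0 for PB and 208.04, 260.1 and 343.0 for LEV on the same scale. The PB and LEV animals were spread more widely than the VEH animals, with SDs of 44.25 and 38.50 against 14.67, and the log2 fold change of PB against VEH was -0.083 (95% interval -0.24 to 0.073, edgeR adjusted p = 0.599).

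Sox9 (NM_080403, rn6 chr10:101288528-101294029) had lowest, median and highest normalized counts of 588.1, 720.6 and 827.6 for VEH, 614.7, 731.1 and 907.8 for PB and 550.3, 719.9 and 1106 for LEV. It differed between PB and VEH by 0.047 (95% interval -0.098 to 0.19, edgeR adjusted p = 0.772), and 7 of 14 PB animals were above the VEH mean of their series. Fabp7 (NM_030832, rn6 chr20:40769624-40773157) had 2836, 4123 and 5233 for VEH, 3442, 4207 and 5723 for PB and 3121, 3997 and 5054 for LEV. Its difference was -0.0025 (95% interval -0.12 to 0.11, edgeR adjusted p = 0.987). The groups of both genes overlapped over most of their ranges.

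Several of these genes varied with markers of other cells, and 11 of the 110 relations of members with marker lists passed for r. The 110 include relations with the other astrocyte identity genes, which are described below. The same relations were not computed for the other tested transcripts, so they cannot be called particular to the members. S100b varied with the microglia markers (r = 0.53, adjusted permutation p = 0.0154; rho = 0.51, adjusted permutation p = 0.0264, n = 41), with r = 0.57 in the first series, 0.50 in the second and 0.57 without the 2 farthest animals. Sox9 varied with the ependyma markers (r = 0.51, adjusted permutation p = 0.0340; rho = 0.45, adjusted permutation p = 0.0591), with r = 0.29 and 0.55 in the series and 0.35 without the 2 farthest animals. Fabp7 ran against the neuron markers (r = -0.48, adjusted permutation p = 0.0154; rho = -0.56, adjusted permutation p = 0.0103), with r = -0.30 and -0.57 in the series and -0.50 without the 2 farthest animals. Sox9 did so too (r = -0.48, adjusted permutation p = 0.0466; rho = -0.48, adjusted permutation p = 0.0549), with r = -0.33 and -0.51 in the series and -0.44 without the 2 farthest. Lcn2 also varied with the pericyte and fibroblast markers (r = 0.53, adjusted permutation p = 0.0340), but its rho of 0.37 did not pass (adjusted permutation p = 0.140) and r was 0.30 without the 2 farthest animals and 0.77 and 0.33 in the series.

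LEV gave no member that passed against VEH. With edgeR 0 of 10 transcripts passed, 2 had an unadjusted p under 0.05 against 5.84% of all tested transcripts, and DESeq2 also passed 0. Among all tested transcripts just Gxylt1 passed (0.00766%), named after its values were seen. Gfap differed between LEV and VEH by -0.043 with a 95% interval of -0.17 to 0.086 (edgeR adjusted p = 0.974). That interval does not reach the fold of 1.25 in either direction. By qPCR the study found no Gfap difference for LEV either, but its GFAP protein staining was stronger after LEV than after VEH. The largest positive values were Cd44 at 0.16 (95% interval -0.017 to 0.34, edgeR adjusted p = 0.846) and Vim at 0.13 (SE 0.063, edgeR adjusted p = 0.844), for which 11 of 14 LEV animals each were above the VEH mean of their series. The Vim and Cd44 groups overlapped, with 6 and 5 LEV animals above the highest VEH animal. The largest value of either sign was that of the low-count Nes NM_012987, at -0.60 (95% interval -1.20 to -0.0050, edgeR adjusted p = 0.844). For it, 11 of 14 LEV animals were below the VEH mean of their series.

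Between the drugs, Gfap was the member that passed, in a comparison in which 4.45% of all tested transcripts did. Of the 10 members, 2 had an unadjusted p under 0.05, against 19.6% of all tested transcripts. It was higher after PB than after LEV by 0.37 on the log2 scale (SE 0.063, edgeR adjusted p = 0.000530, 1.29-fold), past the fold limit that 0.582% of all tested transcripts reached (0.283% as higher), and all 14 PB animals were above the LEV mean of their series. The first series gave 0.25 (edgeR adjusted p = 0.226) and the second 0.45 (edgeR adjusted p = 0.00156). Vim differed by 0.17 (SE 0.061, edgeR adjusted p = 0.0910) with 12 of 14 PB animals higher, and Cd44 by 0.13 (95% interval -0.042 to 0.31, edgeR adjusted p = 0.417). The comparisons of PB with VEH and with LEV share the PB animals. In the test of the difference between the series, no member passed with edgeR in PB against VEH (1 of 10 at an unadjusted p under 0.05, 0.0689% of all tested transcripts passed), LEV against VEH (1 of 10, 0.842%) or PB against LEV (0 of 10, 0.023%).

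Whether Gfap moved with the other genes among animals was asked after the group and series means were removed from log2 CPM, the counts scaled to library size. Over the 41 animals no member passed. The p-values came from 100000 permutations within group and series, two-sided, and were adjusted over 13061 relations of Gfap with every other tested transcript. The highest value was S100b with r = 0.36 (permutation p = 0.0262, adjusted p = 0.443) and rho = 0.29 (permutation p = 0.0787, adjusted p = 0.557). Sox9 had r = 0.29 (permutation p = 0.0486, adjusted p = 0.508) and rho = 0.37 (permutation p = 0.0200, adjusted p = 0.384). Without the 2 animals farthest from the median of Gfap, VEH animal 1 and PB animal 8, r was 0.35 for S100b and 0.25 for Sox9. In the first and second series r was 0.48 and 0.33 for S100b, and 0.27 and 0.31 for Sox9. Of all transcripts, 2.14% had an r with Gfap as high as that of S100b.

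Neither of the other genes that rose with PB passed for its correlation with Gfap from animal to animal. Vim had r = -0.043 (permutation p = 0.784, adjusted p = 0.965) and rho = -0.0052 (permutation p = 0.975, adjusted p = 0.995). In the first series its r with Gfap was -0.35, and in the second 0.18. Cd44 had r = 0.18 (permutation p = 0.325, adjusted p = 0.813) and rho = 0.20 (permutation p = 0.237, adjusted p = 0.739). Within VEH and within PB animals alone r for Cd44 was positive, and within LEV animals it was negative. Where the group means were kept in, so that the PB rise itself entered, Gfap and Vim had r = 0.35 and Gfap and Cd44 r = 0.37. Fabp7, Lcn2 and Aldh1l1 lay between -0.09 and -0.02, and the Nes transcripts at -0.23 for NM_001308239 and -0.32 for NM_012987. Between the 5th and the 95th percentile of all transcripts, r with Gfap ran from -0.32 to 0.30.

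**Figure D3:**
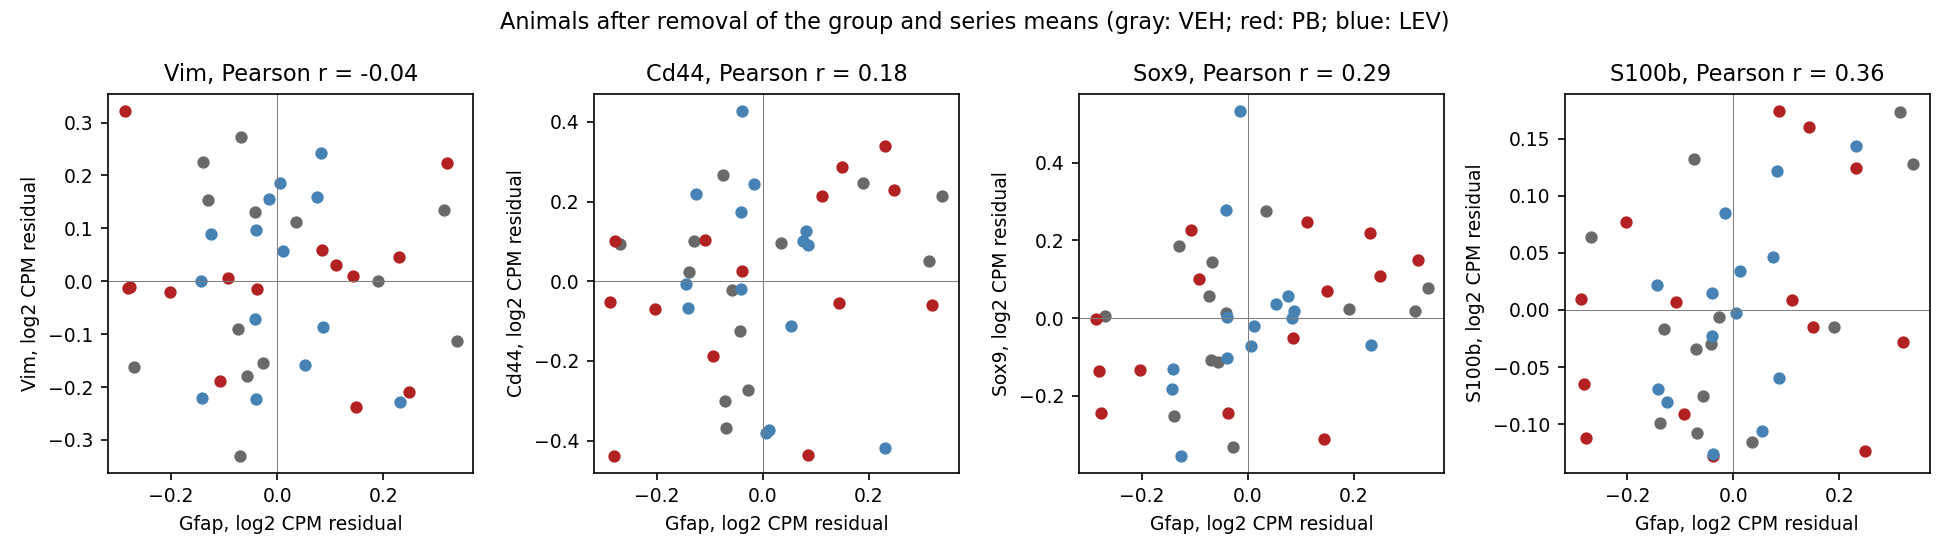
Log2 CPM of Vim, Cd44, Sox9 and S100b (y axes) against that of Gfap (x axis) in 41 animals after removal of the group and series means; each point is 1 animal, gray for VEH, red for PB and blue for LEV. Vim points form no line (r = -0.043), and S100b points rise with Gfap (r = 0.36) without passing the test.

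The transcripts most like Gfap across animals were other genes. The 5 with the highest r over 41 animals were Fcrl2 (0.73), Mlc1 (0.66), Cpe (0.63), Pnpla7 (0.58) and Apoe NM_138828 (0.58). Mlc1 encodes a membrane protein of astrocyte end-feet, Cpe carboxypeptidase E, which processes neuropeptides, and Apoe the lipid carrier that astrocytes secrete. The first 3 passed (adjusted permutation p = 0.0327 each for r; rho 0.70, 0.63 and 0.63, adjusted permutation p at most 0.0373), and r was 0.71, 0.64 and 0.68 without VEH animal 1 and PB animal 8. It was 0.77, 0.81 and 0.75 in the first series and 0.68, 0.57 and 0.64 in the second. The 5 lowest were Camta1 NM_001195559 (-0.65), Tuba1a (-0.65), Mc4r (-0.63), Tubb3 (-0.62) and Procr (-0.62). Tuba1a and Tubb3 encode tubulins of young neurons. None of those 5 passed for r, although Tubb3 (rho = -0.60, adjusted permutation p = 0.0373) and Procr (rho = -0.66, adjusted permutation p = 0.0490) did for rho. The negative relation that passed for r was Reep5 (r = -0.57, rho = -0.65, adjusted permutation p = 0.0327 for each), named after its value was seen. In all, 3 positive and 1 negative relation passed for r (0.0306%). All of these had a permutation p of 1e-05, the smallest the permutations can give. Which relations passed therefore depends in part on the number of permutations.

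The mean level of 31 transcripts of 19 other astrocyte identity genes was also correlated with Gfap (r = 0.46, adjusted permutation p = 0.0340; rho = 0.44, adjusted permutation p = 0.0510, n = 41), and with S100b (r = 0.57, adjusted permutation p = 0.00807; rho = 0.52, adjusted permutation p = 0.0207, n = 41). Without the 2 farthest animals r was 0.37 for Gfap and 0.50 for S100b. In the first and second series it was 0.47 and 0.53 for Gfap, and 0.82 and 0.32 for S100b. Vim (r = -0.064) and Cd44 (r = 0.11) did not pass for this list. Mlc1 is one of its members. Between groups, the list's median was lower after PB while Gfap was higher.

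Of those 31 other identity transcripts, 6 fell after PB and none rose, against 3.46% of all tested transcripts lower, and their median log2 fold change was -0.11 against 0.0046 over all tested transcripts. Slc7a10, an amino acid transporter that carries D-serine, went from a mean of 405.6 ± 28.98 (SD, n = 13) in VEH to 315.9 ± 48.71 (SD, n = 14) in PB, a log2 fold change of -0.36 (SE 0.052, edgeR adjusted p = 5.08e-05), and all 14 PB animals were below the VEH mean of their series. Acsbg1, an acyl-CoA synthetase, fell by 0.19 on the log2 scale (edgeR adjusted p = 0.00371), and 1 of 4 Ndrg2 transcripts, NM_001270864, by 0.21 (edgeR adjusted p = 0.0261). Aldoc, the brain aldolase, fell by 0.16 (edgeR adjusted p = 0.0136), 1 of 4 Slc1a3 transcripts (NM_019225, the glutamate transporter GLAST) by 0.16 (edgeR adjusted p = 0.0286), and Fgfr3, a growth factor receptor, by 0.17 (edgeR adjusted p = 0.0395). Slc1a3 NM_019225 was at -0.18 for LEV against VEH (edgeR adjusted p = 0.248). How the counting split reads among transcripts of 1 gene is uncertain. Against LEV, 3 of the 31 were lower after PB (Slc7a10, Ndrg2 NM_001270864 and Aldoc) and none was higher, where 2.78% of all tested transcripts were lower.

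**Figure D4:**
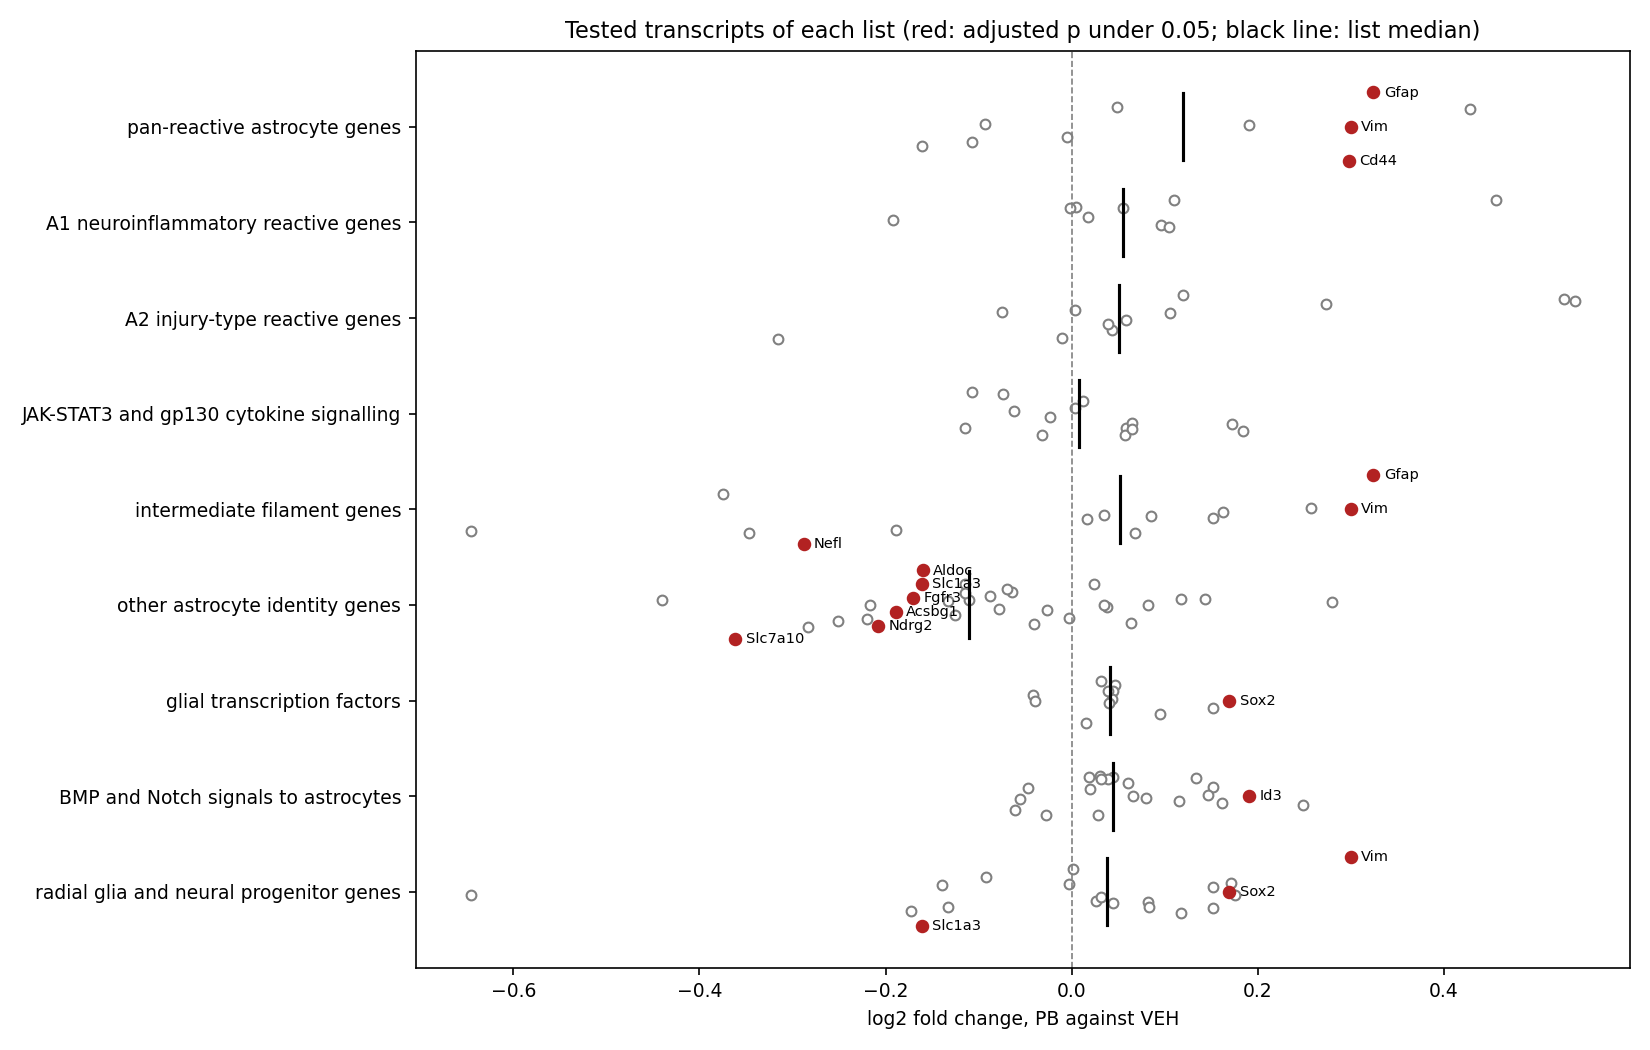
Log2 fold change of PB against VEH (x axis) for every tested transcript of 9 gene lists (y axis, points spread vertically within a list); red points had an adjusted p under 0.05 and black lines are list medians. Gfap, Vim and Cd44 are the red points of the pan-reactive list, and the 6 red points of the other astrocyte identity list lie below 0.

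Of 10 tested transcripts of genes known to rise in most kinds of reactive astrocyte, 3 rose after PB and none fell, and these were Gfap, Vim and Cd44. All 3 are members already described. Among all tested transcripts 5.39% passed in this comparison (1.93% as higher), and 20.2% had an unadjusted p under 0.05. The median was 0.12. The others did not pass. Hspb1, a small heat shock protein, was at 0.43 (edgeR adjusted p = 0.200), and Timp1, an inhibitor of metalloproteinases, at 0.049 (edgeR adjusted p = 0.885). None of the 9 A1 transcripts, a set named for inflammatory stimuli, passed with edgeR (2 at an unadjusted p under 0.05, 0 with DESeq2). The A1 gene C3, a complement component, was at 0.46 (SE 0.16, edgeR adjusted p = 0.0807), with means of 29.74 ± 8.52 (SD, n = 13) for VEH and 41.82 ± 13.53 (SD, n = 14) for PB. The study, by its own processing, did count C3 as raised after PB. None of the 12 A2 transcripts, a set named for ischaemic injury, passed either (1 at an unadjusted p under 0.05, 0 with DESeq2). Ptgs2, which encodes cyclooxygenase 2, was at -0.32 (edgeR adjusted p = 0.117).

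Genes of signals known to act on Gfap were counted next, beside the 5.39% of all tested transcripts that passed for PB against VEH and the 4.45% for PB against LEV. Among 14 JAK-STAT3 and gp130 cytokine transcripts none passed with edgeR after PB (0 at an unadjusted p under 0.05, 0 with DESeq2), with Stat3 itself at 0.0032 (edgeR adjusted p = 0.978) and Socs3, a target and inhibitor of the pathway, at 0.17 (edgeR adjusted p = 0.818). Of 21 BMP and Notch transcripts, 1 rose after PB, Id3, a BMP target that blocks other transcription factors (0.19, SE 0.053, edgeR adjusted p = 0.0261), with all 14 PB animals above the VEH mean of their series. Against LEV, where 1.67% of all tested transcripts were higher after PB and 2.78% lower, 4 of the 21 were higher after PB. They were Id3 (0.22), Rbpj (0.16), the DNA-binding partner of Notch, Hey2 (0.24), a Notch target, and Bmpr1a (0.19), a BMP receptor. DESeq2 gave no adjusted p for Hey2 here. The median log2 fold change of the 21 was 0.044 for PB against VEH and -0.051 for LEV against VEH. Of 12 glial transcription factor transcripts, 1 rose after PB against VEH, the progenitor factor Sox2 (0.17, edgeR adjusted p = 0.0170). Zbtb20, Nfia and Nfix did not pass with edgeR against VEH in either drug group. Zbtb20 was at -0.50 for LEV against VEH (edgeR adjusted p = 0.179), which DESeq2 passed as lower (adjusted p = 0.0370). All 3 were higher after PB than after LEV, by 0.46, 0.19 and 0.17 on the log2 scale. Zbtb20 had means of 383.6 for VEH, 372.6 for PB and 269.9 for LEV.

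The filament list held changes in both directions. Among all tested transcripts 5.39% passed for PB against VEH and 4.45% for PB against LEV, and 20.2% had an unadjusted p under 0.05 for PB against VEH. Of 14 transcripts, Gfap and Vim rose after PB and Nefl, the light neurofilament chain of neurons, fell by 0.29 (SE 0.065, edgeR adjusted p = 0.00584). Against LEV, Gfap and the nuclear lamin Lmnb1 (0.23) were higher after PB, and Nefl (-0.28), Nefm (-0.27) and Nefh (-0.49) were lower. Of 10 neuron marker transcripts, 1 fell after PB against VEH, Stmn2 (-0.084, edgeR adjusted p = 0.0498), and 3 were lower than in LEV animals, Gad1 and 2 of 3 Snap25 transcripts, which have identical values. Of 13 mature oligodendrocyte transcripts 1 fell against VEH, Opalin (-1.39, edgeR adjusted p = 0.0339), for which DESeq2 gave no adjusted p, and Opalin and Mobp were lower after PB than after LEV. The endothelial junction gene Cldn5 was also lower than after LEV (-0.22, edgeR adjusted p = 0.0227). Against VEH none of 8 endothelium and 10 pericyte and fibroblast transcripts passed (3 and 2 at an unadjusted p under 0.05, 0 and 0 with DESeq2). Of 5 tested transcripts of the skeletal muscle list, 4 fell after PB (Atp2a1, Myh4, Pvalb and Acta1). Pvalb also marks parvalbumin interneurons, and the study found it lower after PB by qPCR, with fewer parvalbumin-positive cells. DESeq2 also passed Pvalb and Acta1 and gave no adjusted p for the others, and the summed level of the list spanned 181.2 to 560.3 for VEH and 149.0 to 313.2 for PB. None of 6 oligodendrocyte precursor and 5 red blood cell transcripts passed with edgeR (0 and 0 at an unadjusted p under 0.05, 0 and 0 with DESeq2). The part of these markers in the member results was not tested.

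Of 20 radial glia and progenitor transcripts, 2 rose after PB (Vim and Sox2) and 1 fell (Slc1a3). The share of all tested transcripts that passed was 5.39% for PB against VEH and 4.45% for PB against LEV. The matrix protein gene Tnc was higher after PB than after LEV by 0.41 (edgeR adjusted p = 0.000530), with all 14 PB animals above the LEV mean of their series, and against VEH it was at 0.17 (edgeR adjusted p = 0.151). Of 15 transcripts of Cd44 ligands and hyaluronan genes, 2 rose after PB, Cd44 itself and Spp1, which encodes the CD44 ligand osteopontin. Spp1 was at 0.75 (SE 0.22, edgeR adjusted p = 0.0322), with means of 34.44 ± 8.23 (SD, n = 13) for VEH and 58.09 ± 35.71 (SD, n = 14) for PB. Hmmr (0.32), a hyaluronan receptor for which DESeq2 gave no adjusted p, and Vcan NM_001170560 (0.30), a hyaluronan-binding proteoglycan, were higher after PB than after LEV. Of 10 microglia marker transcripts 1 rose, Cd68, a lysosomal protein of phagocytes (0.97, edgeR adjusted p = 0.000640), for which DESeq2 gave no adjusted p, while the summed level of the list had medians of 2843 for VEH and 2802 for PB. Microglia also express Spp1 and Cd44, and their part in those results was not tested.

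Relatives of the identity members were counted beside the same 5.39% of all tested transcripts for PB against VEH. None of 7 S100 transcripts passed after PB with edgeR (1 at an unadjusted p under 0.05, 0 with DESeq2), and none of 3 SoxE transcripts did (0 and 0). None of 3 fatty acid binding protein transcripts passed with edgeR (1 at an unadjusted p under 0.05, 1 with DESeq2), while Fabp5 was higher after PB than after LEV by 0.16 (edgeR adjusted p = 0.0464). Of 11 folate transcripts, Mtr, which encodes methionine synthase, rose after PB by 0.25 (edgeR adjusted p = 0.0432). Tyms, thymidylate synthase, was higher after PB than after LEV by 0.28 (edgeR adjusted p = 0.0338), and DESeq2 gave it no adjusted p. Of the serpin A family, to which Serpina3n belongs, 1 transcript was tested and did not pass (0 at an unadjusted p under 0.05, 0 with DESeq2). After LEV none of the transcripts of the lists described here passed against VEH with edgeR. At an unadjusted p under 0.05 there were up to 7 per list, in the other identity list of 31, against 5.84% of all tested transcripts. DESeq2 passed 1, Zbtb20. The study, by its own batch removal and DESeq2, reported lower Slc1a2, Slc4a4 and Zbtb20 transcripts after LEV.

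**Figure D5:**
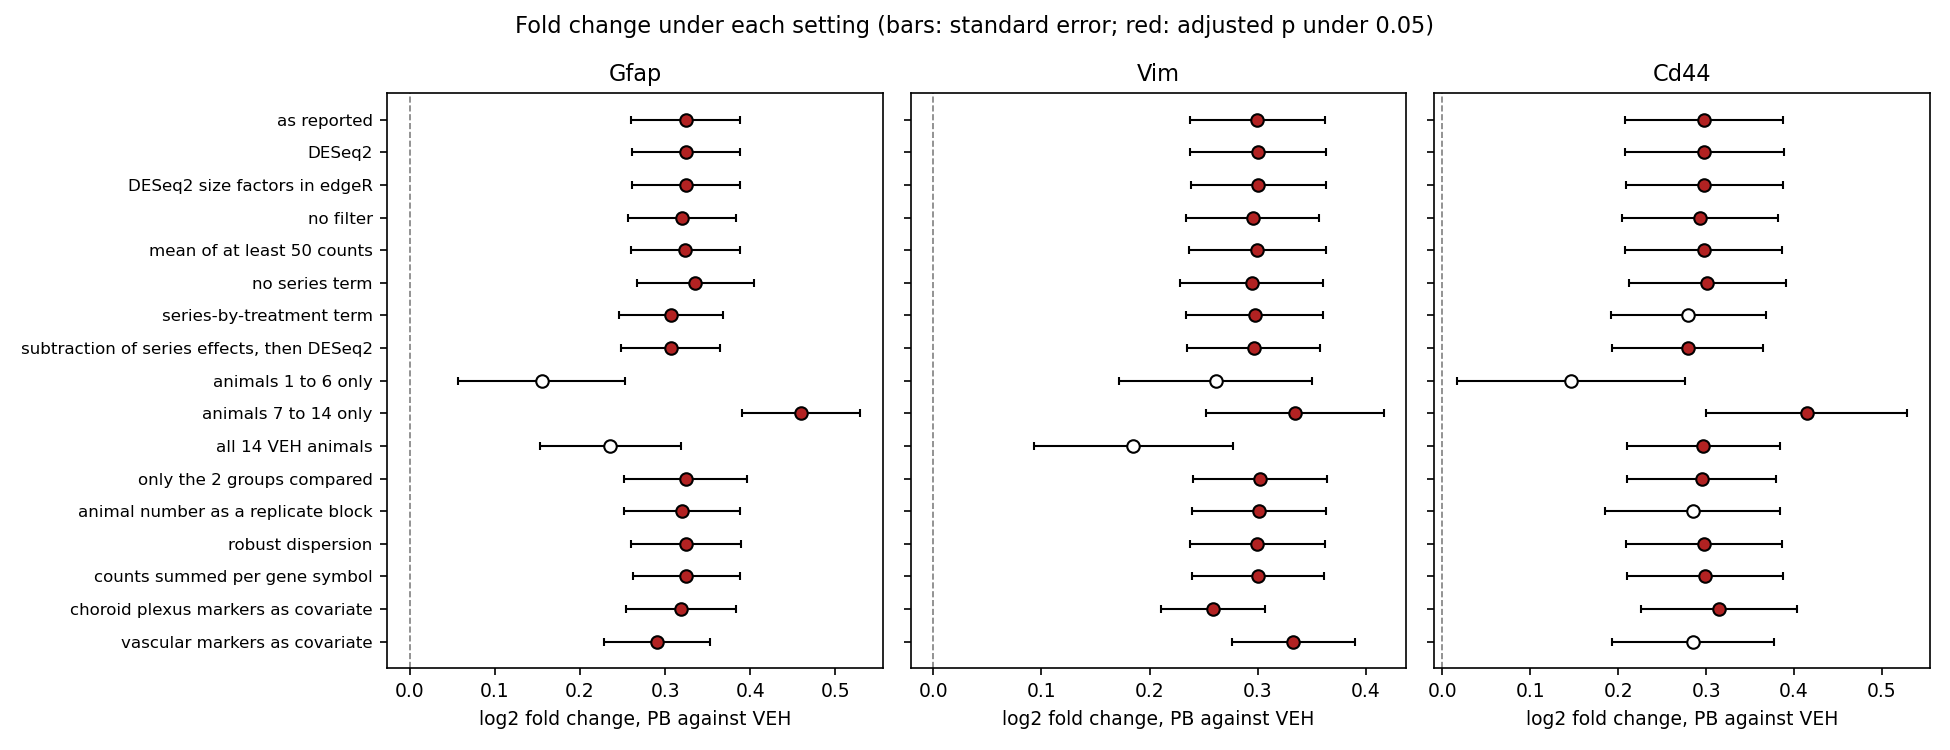
Log2 fold change of PB against VEH (x axis) for Gfap, Vim and Cd44 under each way of processing the counts or choosing the animals (y axis), with standard errors; red points had an adjusted p under 0.05. All values are above 0, Gfap and Vim lose the call in animals 1 to 6 alone and with all 14 VEH animals, and Cd44 loses it in 4 settings.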

How the data were processed

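One RNA library was made from the hippocampus of each of 42 rat pups, of which 41 were analysed. Reads were trimmed by the authors, then mapped against rn6 with STAR 2.7.3a and the deposited values are estimated counts per RefSeq transcript from the Partek E/M algorithm, of which 13.7% are not whole numbers. The authors' deposited table of their own comparisons (p-values, fold changes and group means) was not used. Counts were rounded and tested with edgeR 4.0.16 in R 4.3.3: TMM normalization, filterByExpr by treatment, glmQLFit and glmQLFTest with treatment and code series (animals 1 to 6 or 7 to 14) as terms, and Benjamini-Hochberg adjustment over 13062 transcripts. The test was checked on simulated counts. Effective library sizes ran from 9588079 to 13786159.

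Correlations used log2 CPM (prior count 2), residuals after treatment and series, and numpy 2.4.6. Alternatives were DESeq2 1.42.0 (transcripts for which it gave no adjusted p were not counted as passed or lost), other filters, scalings and batch terms, subsets of animals and marker covariates. Leaving out each animal for the correlations was chosen after seeing the data. The members, lists and alternatives were chosen with earlier results of these data known, so they give no independent support. Named transcripts are all members, every listed gene that passed (at most 6 per list and comparison, by smallest p), at most 3 others of smallest p per list, and the 5 highest and 5 lowest r with Gfap. Timp1, Stat3, Socs3, Nes summed over transcripts, Reep5 and Gxylt1 were added after their values were seen. Levels were not compared between genes, because transcript lengths of rn6 were not used here. Animals of the groups share litters, but no label ties numbers to litters.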

Additional observations from a re-analysis of the deposited data

Results flagged for a closer look

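VEH animal 7, which its label marks as excluded and which was used in the comparisons just in the alternative with all 14 VEH animals, stood above the highest of the 13 analysed VEH animals in 6 member transcripts. Its normalized count was 15170 for Gfap, where the highest VEH animal had 9234 and the highest animal of any group 12553. Vim was at 2904, against at most 1602 in VEH and 2222 in any group, and Sox9 at 1447, against at most 827.6 and 1106. The Nes transcripts were at 731.5 for NM_001308239, against at most 595.9 in VEH, and at 87.91 for NM_012987, against at most 70.5. Aldh1l1 was at 406.1, against at most 283.3. S100b (2569) and Fabp7 (2537) were below the lowest VEH animal, and Lcn2 (34.54) and Cd44 (171.6) were within the VEH range. This is 1 animal, the study left out 1 control sample for its unusual coverage, and no test was made.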

How the results depend on the processing

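Over 17 alternatives the log2 fold change of PB against VEH stayed positive for Gfap (0.15 to 0.46), Vim (0.19 to 0.33) and Cd44 (0.15 to 0.41), and an adjusted p under 0.05 was kept in 15, 15 and 13 of them, with adjusted p-values of 4.14e-05 to 0.559, 0.000188 to 0.289 and 0.0191 to 0.700. The 17 include the fold limit added to the reported fit, where the adjusted p is the same by construction. Vim and Cd44 did not reach that limit, so their call was kept in 14 and 12 alternatives. With DESeq2 size factors in edgeR the median log2 fold change of all transcripts for PB against VEH went from 0.0046 to 0.0050. Where a call changed, the cause was not tested. Among the members the widest intervals were those of Lcn2 and Nes NM_012987, which had the lowest counts.

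Against VEH, 704 transcripts passed for PB, of which 79 also reached the fold limit. The number was 410 with no series term, 1101 after subtraction of series effects and DESeq2, 64 in animals 1 to 6, and 392 with all 14 VEH animals. Of the members, 3 passed, 1 with the fold limit, 0 in animals 1 to 6 and 1 with all 14 VEH animals, and 4 after subtraction (Nes NM_001308239 in addition). For LEV against VEH, 1 transcript passed. The number was 0 with the fold limit, with no series term, with all 14 VEH animals and with only the 2 groups compared, 2 without a filter, with a mean of at least 50 counts and with the choroid plexus covariate, 10 with DESeq2, 17 with a series-by-treatment term, 67 after subtraction, 346 in animals 1 to 6 and 6 in animals 7 to 14. For PB against LEV, 581 passed, 76 with the fold limit, 288 with no series term, 1093 after subtraction, 81 in animals 1 to 6, 132 in animals 7 to 14 and 174 with all 14 VEH animals. The members that passed were 1, then 2 after subtraction and with the choroid plexus or vascular covariate (Vim in addition), and 0 in animals 1 to 6.

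Animal number as a replicate block gave 447 transcripts and 2 members for PB against VEH, with Cd44 no longer past the threshold (adjusted p = 0.107), and 0 transcripts for LEV against VEH. The residuals gave no sign that the numbers pair the animals. Those of same-numbered animals correlated above 0.1 in 3 of 13 (LEV and VEH), 3 of 13 (PB and VEH) and 4 of 14 pairs (PB and LEV). For animals of different number it was 29 of 79, 20 of 79 and 28 of 86 pairs. Of 80 best matches, 11 had the same number. Whether animals of equal number share a litter cannot be told from this.

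Leaving out 1 animal gave 442 (without PB 7) to 891 (without PB 5) transcripts and 2 to 4 members for PB against VEH, 0 to 5 transcripts and 0 members for LEV against VEH, and 283 (without PB 7) to 778 (without PB 5) transcripts and 1 member for PB against LEV. Signs near 0 changed in members that never passed. With 1 animal left out, Fabp7 ranged from -0.032 to 0.017 for PB against VEH, Lcn2 from -0.11 to 0.017 and S100b from -0.0072 to 0.021 for LEV against VEH, and Nes NM_012987 from -0.21 to 0.14 and Sox9 from -0.027 to 0.046 for PB against LEV. The r with Gfap ranged from -0.13 to 0.058 for Vim, -0.11 to 0.15 for Fabp7, -0.16 to 0.068 for Lcn2 and -0.19 to 0.068 for Aldh1l1.

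Other fold changes that turned sign were, for PB against VEH, Sox9 (-0.029 in animals 1 to 6, -0.047 with all 14 VEH animals) and Fabp7 (0.010 with no series term, 0.033 in animals 7 to 14, 0.045 with all 14 VEH animals). For LEV against VEH they were Gfap (0.013 in animals 7 to 14), Sox9 (-0.10 in animals 1 to 6, -0.045 with all 14 VEH animals) and S100b (-0.025 in animals 1 to 6, -0.0033 with the choroid plexus covariate). For PB against LEV they were Sox9 (0.0095 with a series-by-treatment term, 0.0082 after subtraction, 0.076 in animals 1 to 6, 0.00093 with the choroid plexus covariate), Nes NM_001308239 (-0.0041 in animals 7 to 14), Lcn2 (0.00029 in animals 1 to 6) and Cd44 (-0.041 in animals 1 to 6). The r with Gfap turned to 0.35 for Vim, 0.056 for Nes NM_001308239 and 0.071 for Fabp7 with the group means kept, to 0.18 for Vim, 0.27 for Fabp7 and 0.19 for Lcn2 in animals 7 to 14, to -0.0060 for Sox9, 0.34 for Lcn2 and 0.17 for Aldh1l1 in VEH animals, to 0.27 for Fabp7 in PB animals, and to 0.30 for Lcn2, -0.42 for Cd44 and 0.14 for Aldh1l1 in LEV animals. As rho it was 0.018 for Lcn2 and 0.018 for Aldh1l1. No member passed for its correlation with Gfap under any of 11 alternatives.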
